A study of Homo sapiens with 6 samples.

Results

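The insulin-like growth factor (IGF) binding proteins and the insulin-type receptors were followed in MUM2B, a line labelled as human melanoma, with and without overexpression of LACTB. The set held 10 genes, chosen by name: the binding protein genes IGFBP1 to IGFBP7 and the receptor genes IGF1R, IGF2R and INSR, each present as 1 row among the 58735 genes of the expression tables. One group, called LACTB, stably overexpressed LACTB, a mitochondrial protein related to bacterial beta-lactamases, and the other, called EV, carried the empty vector. Each group held 3 RNA sequencing libraries, and both groups were cultured in RPMI with serum. The sources used here name neither the vector, nor the promoter that drives LACTB, nor whether each line is a clone or a pool. They also leave unsaid whether replicates were separate cultures. The p-values therefore measure spread between these libraries only, and that spread may be technical.

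IGF1 and IGF2 are secreted growth factors that circulate bound to IGFBPs, which hold them away from receptors, carry them and release them when proteases cut the binding protein. Freed ligand acts through IGF1R, a receptor tyrosine kinase that signals through IRS adaptors to PI3K and AKT and, through SHC and GRB2, to the MAP kinases. INSR is its close relative and can pair with it in hybrid receptors. IGF2R has no kinase: it is the large mannose 6-phosphate receptor, which takes IGF2 and tagged enzymes to lysosomes.

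The libraries held 16978799 to 17821609 reads in genes in LACTB and 17828472 to 18395631 in EV, recovered from the deposited FPKM values (fragments scaled to exon length and library size). LACTB itself stood at 174, 169 and 161 FPKM in LACTB libraries and at 3.81, 3.39 and 4.71 FPKM in EV libraries, and the 6 libraries thus matched their labels. EV replicate 3 stood apart from its group, with 3.61% of its reads from mitochondrial genes, where LACTB libraries had 4.65% to 5.04% and the remaining EV libraries 5.54% and 5.62%. Of 14 melanocyte markers, 13 averaged under 1 FPKM, all but RAB27A, and OCA2, TRPM1 and S100B were listed at 0. The list summed to 7.28 to 7.68 FPKM in LACTB and 7.98 to 8.36 FPKM in EV, with RAB27A at 4.85 FPKM in LACTB and 6.002 FPKM in EV. TYRP1 and MITF lay the other way, at 0.643 and 0.864 FPKM in LACTB against 0.294 and 0.657 FPKM in EV, without overlap. Epithelial markers, chiefly KRT8 and KRT18 with CDH1 near 0, summed to 312 to 318 FPKM in LACTB and 345 to 357 FPKM in EV. CLDN4 lay the other way, at 7.15 FPKM in LACTB and 4.82 FPKM in EV, as did ESRP1, with 15 to 32 reads per library in LACTB and 0 to 4 in EV. Endothelial markers, chiefly TIE1 and CDH5 with ERG and EMCN near or at 0, summed to 50.03 to 54.2 FPKM in LACTB and 84.5 to 91.6 FPKM in EV. That difference lay in CDH5, at 14.0 FPKM in LACTB and 49.8 FPKM in EV, while TIE1 averaged 36.3 FPKM in both. Fibroblast markers summed to 1.05 to 1.18 FPKM in LACTB and 2.35 to 2.63 FPKM in EV, of which FAP gave most, and leukocyte markers summed to 0.151 to 0.437 FPKM in LACTB and 0.154 to 0.361 FPKM in EV. The part of these differences in the results below was not tested.

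Of the 10 genes, 8 averaged 1 FPKM or more across the libraries and were tested, and IGFBP5 and INSR lay far below. In LACTB cells IGFBP6 and IGF2R rose, while IGFBP2, IGFBP4 and IGF1R fell, each by at most 1.42-fold in mean FPKM. IGFBP1, IGFBP3 and IGFBP7 passed no threshold. The 5 calls among 8 tested members stand beside 32% of all 11875 tested genes, of which 14.8% rose and 17.2% fell (limma on log2(FPKM + 1), Benjamini-Hochberg adjusted p under 0.05 over all tested genes). In 7 of the 8 the LACTB and EV libraries did not overlap, against 47.4% of all tested genes, and IGFBP1 was the exception. The same 5 members were called without EV replicate 3 and in each other fit with 1 library left out. Log2 fold changes here are differences in log2(FPKM + 1), a scale that understates changes of low genes. Their median was -0.16 over the 8 members and -0.010 over all tested genes.

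**Figure D1:**
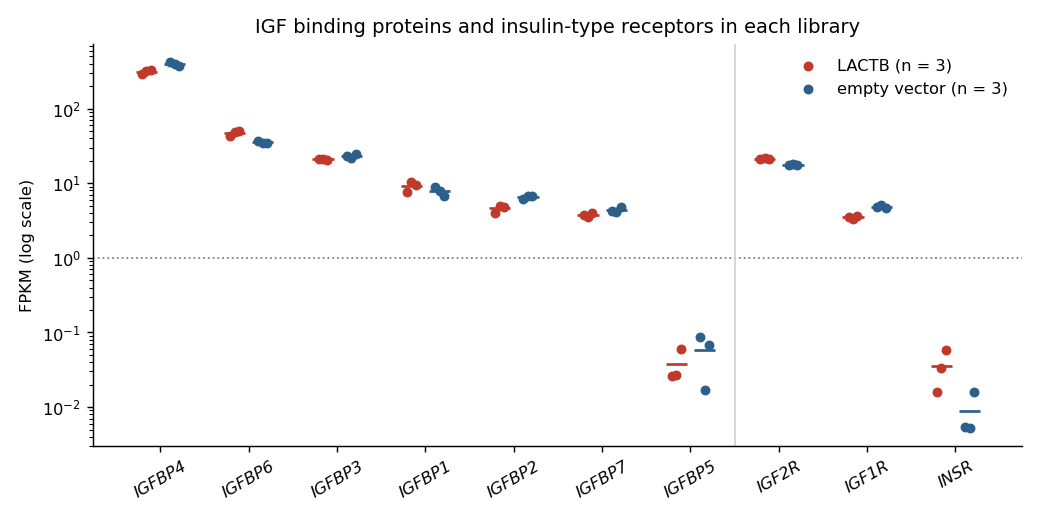
FPKM on a log axis for the 7 IGFBP genes (left of the grey line) and the 3 receptor genes (right), with LACTB libraries in red and EV libraries in blue, 1 point per library and a bar at the mean of the 3. The dotted line marks 1 FPKM, and IGFBP5 and INSR lie below 0.1 FPKM in every library.

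**Figure D2:**
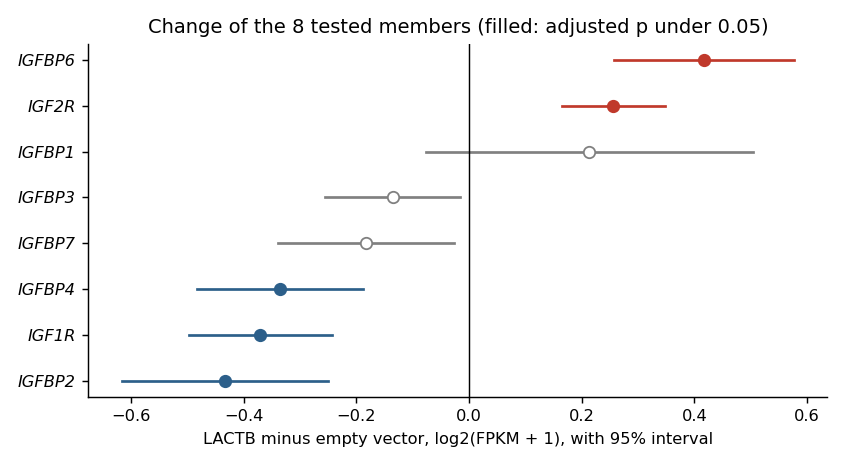
Difference between LACTB and EV in log2(FPKM + 1) for the 8 tested members, with 95% intervals from limma that are not adjusted for the number of genes. IGFBP6 and IGF2R lie to the right of 0 and IGFBP4, IGF1R and IGFBP2 to the left, and the interval of IGFBP1 spans 0.

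IGFBP4 (ENSG00000141753, GRCh38 chr17:40443461-40457731, plus strand) was by far the most abundant of the set. It encodes a small secreted binding protein that mostly blocks IGF action until the protease PAPP-A cuts it. Its level was 294, 322 and 325 FPKM in LACTB libraries and 418, 396 and 374 FPKM in EV libraries, which placed it at the 99.4th percentile of tested genes by mean level. Every LACTB library lay below every EV library, with means of 314 ± 17.1 FPKM in LACTB and 396 ± 22.3 FPKM in EV (SD, n = 3 each). The log2 fold change was -0.33 (limma, SE 0.063, adjusted p = 0.00727), on 36781 summed reads in LACTB and 46824 in EV.

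IGFBP6 (ENSG00000167779, chr12:53097436-53102345, plus strand) came next in abundance and went the other way. Its protein binds IGF2 far more tightly than IGF1. It stood at 43.0, 49.2 and 50.3 FPKM in LACTB libraries against 37.2, 34.2 and 34.4 FPKM in EV libraries. The groups did not overlap, at 47.5 ± 3.94 FPKM in LACTB and 35.3 ± 1.66 FPKM in EV (SD, n = 3 each), and the log2 fold change was 0.42 (limma, SE 0.068, adjusted p = 0.00425). LACTB replicate 1 was the lowest of its group in IGFBP6 and IGFBP4, and also in IGFBP1 and IGFBP2, but not in IGFBP3 or IGFBP7.

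IGFBP2 (ENSG00000115457, chr2:216632828-216664436, plus strand), which encodes a binding protein with an RGD sequence that integrins recognise, had 4.02, 4.96 and 4.88 FPKM in LACTB libraries and 6.17, 6.74 and 6.80 FPKM in EV libraries. All 3 LACTB libraries were lower. The means were 4.62 ± 0.521 FPKM in LACTB and 6.57 ± 0.349 FPKM in EV (SD, n = 3 each), 1.42-fold lower, the largest factor among the 5 called members. The difference in log2(FPKM + 1), smaller than the log2 of that factor, was -0.43 (limma, SE 0.078, adjusted p = 0.00634).

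IGFBP3 (ENSG00000146674, chr7:45912245-45921874, minus strand), the main IGF carrier of serum, showed 21.1, 21.4 and 20.8 FPKM in LACTB libraries and 23.3, 21.9 and 24.7 FPKM in EV libraries. The LACTB libraries were tightly grouped and all lay just under the lowest EV library, EV replicate 2. The log2 difference was -0.14 (95% interval -0.25 to -0.016; limma, adjusted p = 0.0834), and without EV replicate 2 it was -0.18 and passed the threshold (limma, adjusted p = 0.0425). IGFBP3 was thus the 1 tested binding protein whose call turned on a single library.

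IGFBP1 (ENSG00000146678, chr7:45888357-45893668, plus strand), a binding protein that insulin represses in liver, had 7.72, 10.5 and 9.62 FPKM in LACTB libraries and 8.98, 7.77 and 6.81 FPKM in EV libraries. LACTB replicate 1 lay inside the EV range, so the groups overlapped. The log2 difference of 0.21 carried a 95% interval of -0.076 to 0.50 (limma, adjusted p = 0.231), wide enough to hold both no change and a change of the size seen in IGFBP6. It was 0.13 without LACTB replicate 2 or without EV replicate 3, and 0.33 without LACTB replicate 1, and passed no threshold in any of these fits. IGFBP7 (ENSG00000163453, chr4:57030773-57110385, minus strand), a relative with weak IGF binding that is found in vessel matrix, had 3.72, 3.52 and 4.004 FPKM in LACTB libraries and 4.24, 4.17 and 4.77 FPKM in EV libraries. No LACTB library reached the EV range, yet the log2 difference of -0.18 (95% interval -0.34 to -0.027) missed the threshold (limma, adjusted p = 0.0748), on 117 to 166 reads per library. The last exon of IGFBP7 overlaps POLR2B on the opposite strand, which reached 30.5 FPKM, and the use of strand in counting is not given in the sources used here.

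IGFBP5 (ENSG00000115461, chr2:216672105-216695525, minus strand), which encodes a binding protein that attaches to matrix, was close to absent. It had 3, 3 and 7 reads in LACTB libraries and 10, 2 and 8 reads in EV libraries, or at most 0.088 FPKM. The ratio of read rates was 0.656 (exact Clopper-Pearson 95% interval 0.300 to 1.38, for counting error alone), so no difference was detectable at this depth. Its neighbour on chromosome 2, IGFBP2, lies tail to tail with it at a distance of 7.668 kb with no protein-coding gene between them, and was present at 4.02 to 6.80 FPKM in the same libraries.

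Among the receptors, IGF1R fell and IGF2R rose. IGF1R (ENSG00000140443, chr15:98648539-98964530, plus strand) had 3.54, 3.34 and 3.66 FPKM in LACTB libraries and 4.83, 5.04 and 4.63 FPKM in EV libraries. Each LACTB library was below each EV library, and the means were 3.51 ± 0.158 FPKM in LACTB and 4.83 ± 0.202 FPKM in EV (SD, n = 3 each). The log2 fold change was -0.37 (limma, SE 0.054, adjusted p = 0.00271), the smallest p of the set, on 802 to 917 reads per library in LACTB and 1164 to 1274 in EV. Antisense and intronic RNA genes annotated within IGF1R reached at most 0.562 FPKM.

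IGF2R (ENSG00000197081, chr6:159969099-160113507, plus strand) had 21.1, 21.7 and 20.9 FPKM in LACTB libraries and 17.4, 18.1 and 17.3 FPKM in EV libraries. The spread within each group was small, at 21.2 ± 0.432 FPKM in LACTB and 17.6 ± 0.408 FPKM in EV (SD, n = 3 each), and no library crossed over. The log2 fold change was 0.26 (limma, SE 0.039, adjusted p = 0.00318). Its antisense partner AIRN, which silences the gene on one parental copy in mouse, was at most 0.0260 FPKM. A transcribed pseudogene that overlaps IGF2R on the same strand, AL353625.1, reached 1.37 FPKM.

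INSR (ENSG00000171105, chr19:7112255-7294034, minus strand), the insulin receptor, was close to absent. The libraries held 3, 6 and 11 INSR reads in LACTB and 1, 1 and 3 in EV over 10451 bases of exon, or at most 0.0585 FPKM, and no other annotated gene overlaps it. LACTB replicate 1 and EV replicate 3 had equal counts, so the groups touched. The ratio of read rates was 4.03 (exact Clopper-Pearson 95% interval 1.47 to 13.8, for counting error alone). INSR was not tested, since it lay under the filter; fitted without a filter, its log2 difference was 0.038 (limma, adjusted p = 0.417). INSRR, the insulin receptor-related receptor, held 2 to 3 reads per library in LACTB and 6 to 8 in EV. IGF1R was thus the 1 gene of these 3 receptor kinases that passed the filter.

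The levels, which FPKM sets per exon length, kept almost the same order in both groups. From the highest it ran IGFBP4, IGFBP6, then IGFBP3 and IGF2R, then IGFBP1, IGFBP2, IGF1R with IGFBP7, and last IGFBP5 with INSR. IGFBP3 and IGF2R lay within the same range in LACTB libraries, where their ratio was 0.999, 0.986 and 0.993, whereas IGFBP3 exceeded IGF2R in EV libraries, at 1.34, 1.21 and 1.42 times. The ranges of IGF1R and IGFBP7 overlapped in both groups, at 3.34 to 3.66 and 3.52 to 4.004 FPKM in LACTB, and 4.63 to 5.04 and 4.17 to 4.77 FPKM in EV.

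As a share of the summed FPKM of all 7 binding protein genes, IGFBP4 made up 78.7%, 78.2% and 78.4% in LACTB libraries and 84.0%, 84.1% and 82.8% in EV libraries. IGFBP6 made up 11.5%, 11.9% and 12.1% in LACTB libraries and 7.46%, 7.27% and 7.62% in EV libraries. The IGFBP4 to IGFBP6 ratio was therefore 6.84, 6.55 and 6.46 in LACTB libraries and 11.3, 11.6 and 10.9 in EV libraries, with no overlap. The sum itself was 400.1 ± 22.9 FPKM in LACTB and 473.5 ± 23.6 FPKM in EV (SD, n = 3 each). IGFBP1 gave 2.07% to 2.55% of it in LACTB and 1.51% to 1.80% in EV, and IGFBP3 5.01% to 5.64% in LACTB and 4.64% to 5.48% in EV. The balance of the receptors also differed: IGF2R exceeded IGF1R 5.96, 6.502 and 5.72 times in LACTB libraries and 3.61, 3.59 and 3.74 times in EV libraries. These shares and ratios follow from the members' own values and were not tested further.

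**Figure D3:**
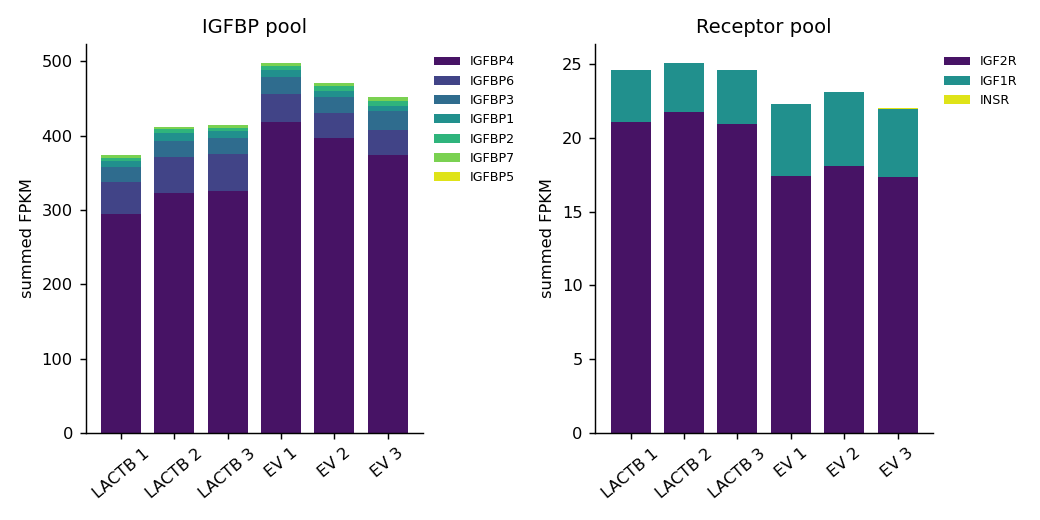
Summed FPKM of the IGFBP genes (left) and of the receptor genes (right), 1 bar per library with LACTB libraries first, divided by gene. IGFBP4 fills most of each IGFBP bar, IGFBP6 takes a larger share in LACTB libraries, and IGF2R fills 84.9% to 86.6% of the receptor bars in LACTB and 78.2% to 78.9% in EV.

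The stretches before the start sites of the 3 receptor genes and of IGFBP4 and IGFBP6 are shown to set the near-absent INSR beside the expressed receptors, and the pair of abundant binding protein genes that went opposite ways beside each other. Each is the 250 bases before the RefSeq start (GRCh38.p14), read 5′ to 3′ on the gene's strand, and capitals mark CG dinucleotides.
IGF1R (chr15:98648289-98648538, plus strand): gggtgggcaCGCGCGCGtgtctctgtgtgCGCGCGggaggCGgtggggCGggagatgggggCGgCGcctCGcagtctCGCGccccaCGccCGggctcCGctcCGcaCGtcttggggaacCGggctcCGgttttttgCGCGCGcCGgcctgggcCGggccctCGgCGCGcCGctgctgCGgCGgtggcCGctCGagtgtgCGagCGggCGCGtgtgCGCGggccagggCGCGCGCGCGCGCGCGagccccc
IGF2R (chr6:159968832-159969081, plus strand): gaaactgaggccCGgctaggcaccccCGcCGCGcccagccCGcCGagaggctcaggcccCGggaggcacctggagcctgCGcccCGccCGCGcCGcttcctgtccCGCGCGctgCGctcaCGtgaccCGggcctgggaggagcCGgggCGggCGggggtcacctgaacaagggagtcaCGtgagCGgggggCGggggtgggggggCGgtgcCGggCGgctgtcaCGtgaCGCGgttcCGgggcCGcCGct
INSR (chr19:7294415-7294664, minus strand): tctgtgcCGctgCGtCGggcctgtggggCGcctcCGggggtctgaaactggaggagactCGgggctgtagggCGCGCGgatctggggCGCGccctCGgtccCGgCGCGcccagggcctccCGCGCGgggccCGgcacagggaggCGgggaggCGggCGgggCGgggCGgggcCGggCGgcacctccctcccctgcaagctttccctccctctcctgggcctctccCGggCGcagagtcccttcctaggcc
IGFBP4 (chr17:40443200-40443449, plus strand): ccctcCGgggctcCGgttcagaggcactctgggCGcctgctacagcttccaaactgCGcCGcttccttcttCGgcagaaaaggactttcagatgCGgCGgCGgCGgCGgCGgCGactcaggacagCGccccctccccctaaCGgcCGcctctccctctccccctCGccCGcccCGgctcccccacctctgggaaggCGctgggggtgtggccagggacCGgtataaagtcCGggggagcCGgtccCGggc
IGFBP6 (chr12:53097417-53097666, plus strand): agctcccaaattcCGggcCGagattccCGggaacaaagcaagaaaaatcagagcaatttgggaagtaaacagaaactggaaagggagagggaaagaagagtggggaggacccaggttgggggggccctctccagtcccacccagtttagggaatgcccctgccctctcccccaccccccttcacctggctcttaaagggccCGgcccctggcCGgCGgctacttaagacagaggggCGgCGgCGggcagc

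The IGF1R stretch held 48 CG dinucleotides and was 81.2% G or C, against a median of 11 and 58% over 35116 RefSeq windows of the same length. IGF2R held 33, INSR 28 and IGFBP4 24, and IGFBP6 held 9. The CG count of INSR, at no more than 11 reads per library, thus lay between those of the expressed IGF2R and IGFBP4. The RefSeq start lies 231 bases downstream of the GENCODE start in IGFBP6, so most of that window lies inside the GENCODE gene. In INSR it lies 380 bases upstream. Among the windows not shown, it lies 602 bases downstream in IGFBP3, and 592 and 26739 bases downstream at start sites of IGFBP2. RefSeq windows were found for 8 of the 10 members, with 3 start sites for IGFBP2, and none for IGFBP1 or IGFBP7. Among the 10 windows, the FOXO core GTAAACA occurred on either strand once, in IGFBP6, and it occurs in 2.98% of all windows. The sequence CAAAACA, found in 4.30% of all windows, and TGATGNAA, the composite element bound by ATF4 with C/EBP factors and found in 3.14%, occurred in none of the 10. These are matches of letters and not sites of binding.

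The ligand genes gave almost no reads. IGF1 had 0, 1 and 1 reads in LACTB libraries and 2, 0 and 0 in EV libraries, and IGFALS, the acid-labile subunit that joins IGFBP3 complexes in serum, had 1, 0 and 4 in LACTB and 6, 3 and 0 in EV. INS and IGF2 were listed at 0 in all 6 libraries. IGF2 has a pair of overlapping gene models and a readthrough gene, INS-IGF2, all at 0, and how reads in overlapping genes were counted is not given in the sources used here, so the 0 of IGF2 cannot be read as absence. The genes of all 4 ligands and carriers were under the filter.

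Of 17 listed genes of the proteases that cut IGFBPs, and of their inhibitors, 8 were tested. Of these, 3 rose and 3 fell, with a median log2 fold change of -0.15, where 14.8% of all tested genes rose and 17.2% fell. PAPPA2, a metalloprotease that cuts IGFBP3 and IGFBP5, had 3.50, 3.49 and 3.68 FPKM in LACTB libraries and 0.161, 0.242 and 0.254 FPKM in EV libraries. That is a 16.2-fold higher mean, from 2073 reads in LACTB and 129 in EV (difference in log2(FPKM + 1) 1.90, SE 0.074; limma, adjusted p = 1.04e-05). PAPPA2 is among the 3 that rose but passed the filter only through its level in LACTB, so its rise lends that count no support. Fitted without a filter, its adjusted p (limma) was 0.000215. Its relative PAPPA, the protease of IGFBP4, held 10 to 11 reads per library in LACTB and 6 to 15 in EV, at most 0.0714 FPKM.

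The inhibitors of these proteases went opposite ways. STC2, stanniocalcin 2, rose to 26.8 ± 1.63 FPKM in LACTB, against 11.3 ± 0.845 FPKM in EV (SD, n = 3 each), 2.36-fold higher (log2 fold change 1.17; limma, adjusted p = 4.78e-05). STC1, stanniocalcin 1, fell to 58.8 ± 0.652 FPKM in LACTB, against 77.1 ± 4.75 FPKM in EV (log2 fold change -0.38; limma, adjusted p = 0.0019), and remained the more abundant of the pair. The lysosomal protease gene CTSD, cathepsin D, rose 1.73-fold to 15.7 ± 1.12 FPKM in LACTB, against 9.12 ± 1.00 FPKM in EV (limma, adjusted p = 0.000987). ADAM9 and HTRA1, a metalloprotease and a serine protease, were 1.21-fold and 1.38-fold lower (limma, adjusted p = 0.00278 and 0.0125). In each of the 6 called genes of this list the groups did not overlap, as in 47.4% of all tested genes. These 6 were named because they were called, so this adds no support.

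**Figure D4:**
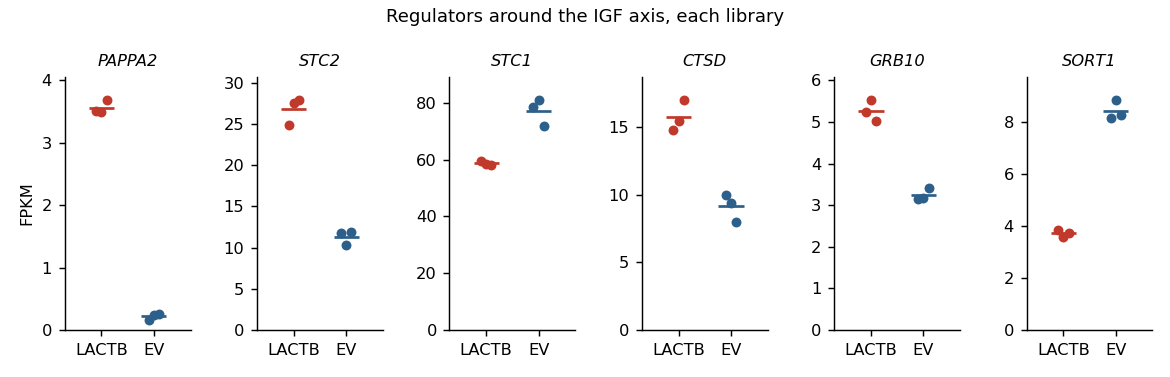
FPKM of 6 genes around the IGF axis on axes that start at 0, with LACTB libraries in red at left and EV libraries in blue at right, 1 point per library and a bar at the mean. PAPPA2, STC2, CTSD and GRB10 are higher in every LACTB library and STC1 and SORT1 lower.

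Other genes whose protein holds an IGFBP-type domain were tested in 7 of 13 cases, of which 2 rose and 5 fell (median log2 fold change -0.36). Of all tested genes 14.8% rose and 17.2% fell. HTRA1 is counted among those that fell both here and in the list of proteases and inhibitors. With any single library but EV replicate 2 left out, 1 rose, and 4 or 5 fell. The secreted matrix proteins CTGF and CYR61 stood at 98.2 ± 3.75 and 358 ± 8.64 FPKM in LACTB, against 252 ± 16.6 and 676 ± 14.5 FPKM in EV (limma, adjusted p = 1.27e-05 and 2.31e-05). CRIM1, a membrane protein that binds BMPs, was 1.29-fold lower (limma, adjusted p = 0.00126). ESM1, the secreted proteoglycan endocan, rose 1.23-fold to 319 ± 2.79 FPKM in LACTB, against 261 ± 13.8 FPKM in EV (limma, adjusted p = 0.00522). ESM1 thus went the opposite way to CTGF and CYR61.

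Of 11 reported partners of the IGFBPs at the surface or in the nucleus, 8 were tested, with 1 that rose and 4 that fell (median -0.19). The shares of all tested genes were 14.8% that rose and 17.2% that fell. Without LACTB replicate 2 or LACTB replicate 3, 3 of the partners fell. The integrin subunit ITGAV and the caveolar coat gene CAV1 were 1.43-fold and 1.41-fold lower, at 12.6 ± 0.181 and 75.7 ± 1.66 FPKM in LACTB against 18.1 ± 1.19 and 107 ± 2.74 FPKM in EV (limma, adjusted p = 0.000807 and 0.000214). LRP1, a scavenger receptor reported to bind IGFBP3, overlapped between the groups.

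Behind the receptors, 4 of 11 tested adaptors and brakes rose and 3 fell (median 0.088), where 14.8% of all tested genes rose and 17.2% fell. The counts moved with single libraries, to 1 and 2 without LACTB replicate 3, 2 and 0 without LACTB replicate 2 or EV replicate 2, 2 and 1 without LACTB replicate 1, 4 and 1 without EV replicate 1, and 2 and 2 without EV replicate 3. GRB10, an adaptor that binds both receptor kinases and dampens their signal, rose to 5.26 ± 0.254 FPKM in LACTB, against 3.24 ± 0.145 FPKM in EV (1.62-fold; log2 fold change 0.56; limma, adjusted p = 0.000524), and its call held in each fit with 1 library left out. IRS1, the first docking protein of the pathway, stood at 3.42 ± 0.162 FPKM in LACTB and 3.09 ± 0.340 FPKM in EV (limma, adjusted p = 0.290).

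Among PI3K, AKT, FOXO and mTORC1 genes, 1 of 22 tested rose and 4 fell, 22.7% against the 32% of all tested genes, with a median log2 fold change of -0.030. PIK3CB, a catalytic subunit of PI3K, fell to 9.002 ± 0.410 FPKM in LACTB, against 11.5 ± 0.677 FPKM in EV (limma, adjusted p = 0.00534). Of the others called, most lost their call with single libraries: the counts were 0 rose and 2 fell without LACTB replicate 2, LACTB replicate 3, EV replicate 2 or EV replicate 3, and 0 and 3 without LACTB replicate 1. With no filter on low values, 0 rose and 1 fell. AKT1 stood at 11.9 ± 0.627 FPKM in LACTB and 12.01 ± 0.345 FPKM in EV (log2 difference -0.015, 95% interval -0.13 to 0.10; limma, adjusted p = 0.843). PIK3R2 was under the filter, and a readthrough gene overlaps it, so its low value is uncertain.

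Of genes known to be driven by FOXO factors, which AKT holds out of the nucleus, 10 of 17 were tested. Of these, 4 rose and 1 fell (median 0.19), where 14.8% of all tested genes rose and 17.2% fell. IRS2 is counted among those that rose both here and in the list of adaptors and brakes. The rises numbered 3 without LACTB replicate 1, LACTB replicate 2, LACTB replicate 3 or EV replicate 3. The thioredoxin inhibitor gene TXNIP rose 1.49-fold to 6.60 ± 0.456 FPKM in LACTB, against 4.43 ± 0.0615 FPKM in EV, the growth arrest gene GADD45A 1.37-fold and the ubiquitin ligase subunit gene FBXO32 1.74-fold (limma, adjusted p = 0.00106, 0.00048 and 0.00835). FBXO32, at 0.982 FPKM in EV, passed the filter only through LACTB, so its rise lends the count of 4 no support. Fitted without a filter, its adjusted p (limma) was 0.0369. The liver targets PCK1 and G6PC were listed at 0 in all libraries. Of the FOXO genes themselves, FOXO1 and FOXO3 passed no threshold. FOXO4 fell to 1.46 ± 0.116 FPKM in LACTB, against 2.03 ± 0.213 FPKM in EV (limma, adjusted p = 0.0303). That call was lost without LACTB replicate 1, LACTB replicate 2, LACTB replicate 3, EV replicate 2 or EV replicate 3. It was also lost without a filter, with values as TPM and with a replicate block.

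IGF2R also sorts enzymes tagged with mannose 6-phosphate, and in that list 3 of 11 tested genes rose and 1 fell (median 0.026), 36.4% against the 32% of all tested genes. The rises numbered 1 without LACTB replicate 2, LACTB replicate 3 or EV replicate 1. M6PR, the smaller receptor for the same tag, stood at 55.3 ± 0.701 FPKM in LACTB and 54.3 ± 1.95 FPKM in EV, with overlapping groups (log2 difference 0.026, 95% interval -0.069 to 0.12). GNPTG, a subunit of the tagging enzyme, rose to 4.83 ± 0.268 FPKM in LACTB, against 3.63 ± 0.255 FPKM in EV (limma, adjusted p = 0.00749). SORT1, the sorting receptor sortilin, fell to 3.72 ± 0.131 FPKM in LACTB, against 8.44 ± 0.362 FPKM in EV, 2.27-fold lower (limma, adjusted p = 2.48e-05).

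**Figure D5:**
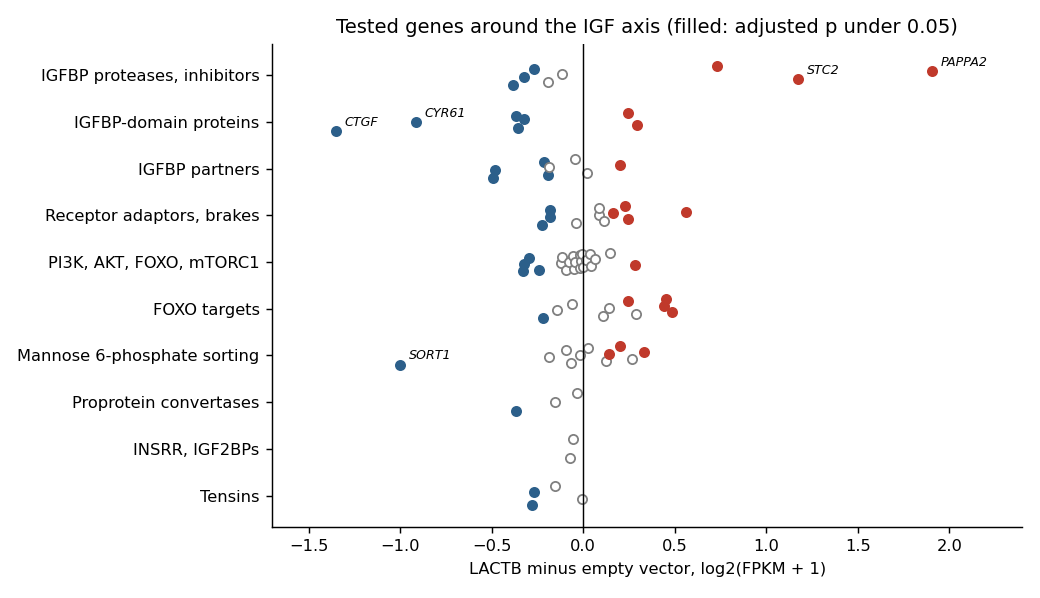
Difference between LACTB and EV in log2(FPKM + 1) for each tested gene of the pathway lists, 1 row per list and 1 point per gene. Filled red points rose and filled blue points fell (limma, adjusted p under 0.05) and open points passed no threshold; PAPPA2 at 1.90 and CTGF at -1.35 lie farthest out.

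FURIN, the main protease that cuts the IGF1R and INSR precursors into their subunits, fell to 23.1 ± 1.91 FPKM in LACTB, against 30.04 ± 2.12 FPKM in EV (limma, adjusted p = 0.00946), and PCSK5 and PCSK7, of the same family, passed no threshold. The IGF2 mRNA binding proteins IGF2BP2 and IGF2BP3 passed no threshold either, at 58.5 ± 0.447 and 13.8 ± 0.818 FPKM in LACTB and 60.8 ± 1.28 and 14.6 ± 0.586 FPKM in EV.

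Several binding protein genes lie in tail-to-tail pairs or near tensin genes, which encode adaptors between integrins and actin. IGFBP1 and IGFBP3 are 18.576 kb apart on chromosome 7, face each other and have no protein-coding gene between them, yet differ in level, with neither called. IGFBP4 lies 18.096 kb from TNS4 on chromosome 17 and IGFBP6 33.063 kb from TNS2 on chromosome 12. TNS4 stood at 1.94 ± 0.162 FPKM in LACTB and 1.96 ± 0.302 FPKM in EV, TNS2 at 5.24 ± 0.154 FPKM in LACTB and 5.99 ± 0.868 FPKM in EV, and neither passed the threshold. Of the 4 tensin genes, 2 fell, beside 17.2% of all tested genes, and 1 to 3 fell with single libraries left out. TNS3, which lies more than 1 megabase from IGFBP3 on chromosome 7, fell to 16.1 ± 0.293 FPKM in LACTB, against 19.6 ± 1.18 FPKM in EV (limma, adjusted p = 0.00777).

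The genes whose values ran most like IGF2R over the 6 libraries, by the root-mean-square difference of log2(FPKM + 1) after each gene's own mean was taken off, included the tight junction gene CLDN1 (0.0116) and the mannosyltransferase gene ALG2 (0.0168). CLDN1 had 79.1, 79.6 and 77.0 FPKM in LACTB libraries and 65.0, 67.3 and 65.3 FPKM in EV libraries. Nearest to IGF1R were RCC2, a regulator of mitosis (0.0226), CCDC80, a secreted matrix protein gene (0.0251), and FBXL7, a ubiquitin ligase subunit gene (0.0267). CCDC80 had 32.1, 31.0 and 31.7 FPKM in LACTB libraries and 40.5, 42.1 and 40.2 FPKM in EV libraries. With 6 libraries in 2 groups, any gene with a difference of about the same size scores as alike.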

How the data were processed

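RNA was measured in 6 libraries of MUM2B cells, 3 with LACTB and 3 with the empty vector (EV), sequenced as paired-end reads of 150 bp, per the labels' protocols. The authors deposited 1 FPKM value per gene and library. The submitters' processing notes name the build GRCh38 and the tools DESeq2 1.16.1, featureCounts 1.5.0-p3 and HISAT2 2.0.5, without role or order. Neither the use of strand nor the annotation is given in the sources used here. All 58735 gene IDs matched GENCODE 29, which gave exon lengths and positions. FPKM times exon length gave whole reads for 100% of values above 0 (tolerance 0.1 reads), so reads per gene were recovered. At these depths 3 reads in 2 kb of exon were worth 0.0827 to 0.0872 FPKM, and intervals on reads cover counting error only.

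Genes averaging 1 FPKM or more were tested with limma 3.58.1 in R 4.3.3 (lmFit, trended eBayes) on log2(FPKM + 1), a scale that understates changes of low genes, with Benjamini-Hochberg adjustment over all 11875 genes and a threshold of 0.05; 5029 had an unadjusted p under 0.05. Ratios called fold are of mean FPKM, and log2 fold changes are differences in log2(FPKM + 1). The code of the fit was checked on simulated reads with 1 setting of spread for all genes and libraries. That check does not measure error rates in these libraries, where EV replicate 3 stood apart. Libraries of 1 group differed beyond sampling noise, with a chi-square per degree of freedom of 2.02 to 12.4, so each counted as 1 sample. The members, lists and tests were chosen with earlier results of these data known. All members are named, and up to 3 genes per list and direction with the smallest p. Those whose call was lost under an alternative are given in the closing section only, apart from IRS2, also named where its lists overlap. FOXO4 and genes without a call were named for their role after their values were seen, except members, ligands and other genes of lists of 5 or fewer. For the called member with the smallest p in each direction, the 3 genes with the most similar pattern are also named, of which 1 is not reported here. Promoter windows came from RefSeq. Alternatives were another pseudocount, filters, scalings, variance models, a replicate block, voom on recovered reads and each library left out.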

Additional observations from a re-analysis of the deposited data

How the results depend on the processing

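The 5 called members kept their direction and their call under every alternative that tested them. Their adjusted p (limma) ran from 0.000109 to 0.0432 for IGFBP4, 6.08e-05 to 0.0229 for IGFBP6, 0.000406 to 0.0288 for IGFBP2, 4.01e-05 to 0.0208 for IGF1R and 4.93e-05 to 0.0235 for IGF2R. At a mean of at least 5 FPKM, IGF1R and IGFBP7 were not tested. With single libraries left out, 5 or 6 members were called and IGFBP3 ran from -0.18 to -0.094, passing the threshold only without EV replicate 2; over all its alternatives its adjusted p (limma) was 0.0425 to 0.361. With a pseudocount of 0.1 the difference was -0.18 for IGFBP5 and 0.31 for INSR, which follows from their values near 0; the other scalings, the variance models, the block and voom gave no value for this untested pair. The count of all called genes was 2503 to 3305 with single libraries left out (3796 with all), lowest without LACTB replicate 2. Replicate numbers are shared by the groups, but same-numbered libraries did not deviate together (r of -0.13, 0.019 and -0.044 across genes), and no LACTB library correlated best with the EV library of its own number; with a replicate block 2479 genes were called, 1155 higher and 1324 lower, and no member changed its call. These alternatives were applied to the genes around the axis after seeing the data. GRB2, PTPRF, SOCS2, SOCS3, IRS2, NOV, GGA1, VPS26A, PHLPP2, TSC2 and TNS1 lost their call in fits that omitted 1 library, with adjusted p (limma) of up to 0.148 in SOCS3, as did KPNB1 and CDKN1B as TPM, TMEM219 under the block and AKT2 without a filter; the cause was not tested. FOXO4 also lost its call in fits that omitted 1 library, and the cause was not tested. Depth limits IGFBP5 and INSR, at 11 reads or fewer per library.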
